A study of Mus musculus with 60 samples.

Results

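Grem1 and 8 other genes of bone morphogenetic protein (BMP) signalling were followed through mouse cancer-associated fibroblasts (CAFs) that had been cultured with lung cancer cells. The 9 genes were Grem1, Bmp2, Bmp4, Bmpr1a, Bmpr2, Smad6, Id1, Id2 and Id3. They were chosen by symbol, with earlier results of these data known, and each symbol was found in the 48440 genes that every count table lists. The fibroblasts are named tCAFs in the labels, which do not explain the prefix, and they were enriched by fluorescence-activated cell sorting before lysis for bulk RNA sequencing. Titles of the aggregates of CAFs alone name the cells CAF-GFP. In 1 set of multicellular aggregates, in which both cell types grow in contact, CAFs were cultured with 344SQ cells, with 393P cells or alone, with 3 libraries each. In another set of aggregates the CAFs were cultured with 344SQ cells that carried an shRNA against Zeb1 (shZEB1) or a control shRNA (shCTL), with 3 libraries each. In a Boyden chamber, where a porous membrane keeps the cells apart, CAFs were cultured with 344SQ cells, with 393P cells or alone, as 5 biological replicates of 3 technical libraries each, which were summed per replicate. 344SQ and 393P are mouse lung adenocarcinoma lines, of which 344SQ is known as metastatic and 393P as poorly metastatic. The labels do not say whether biological replicates came from separate fibroblast isolates, so the tests measure the spread between these samples.

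BMP ligands such as Bmp2 and Bmp4 bind a pair of type I and type II receptor kinases at the cell surface, among them Bmpr1a and Bmpr2. The receptors phosphorylate Smad1, Smad5 and Smad9, which enter the nucleus with Smad4 and switch on the Id genes and the inhibitory Smads. Grem1 is a secreted protein that binds Bmp2 and Bmp4 and keeps them from their receptors, and it is a known product of fibroblasts in tumours and in the gut wall.

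The aggregate libraries held 757717 to 1258751 counts, the shRNA libraries 739530 to 2144803, and the Boyden sums 4182944 to 8542262. The 11 fibroblast markers summed to 3980 to 8664 counts per 1000000 (CPM) in the aggregates. They came to 1726 to 4466 CPM in the shRNA set and 6801 to 9216 CPM in the Boyden sums. Lum had 0 counts in 393P aggregates and in aggregates of CAFs alone, and each other fibroblast marker had counts in every group. The 16 markers of carcinoma cells and lung epithelium summed to 7.09 to 101 CPM in the aggregates. They reached 18.9 to 92.5 CPM in the Boyden sums and 118 to 1746 CPM in the shRNA set. Zeb1, the target of the shRNA, had 144, 48.4 and 120 CPM in shZEB1 libraries, against 71.8, 105 and 50.3 CPM in shCTL libraries. The hairpin was carried by the 344SQ cells, and fibroblasts express Zeb1 themselves, so its level in sorted CAFs is no check of the knockdown. In bulk libraries fewer cells of a type and less RNA per cell cannot be told apart.

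RefSeq start sites on GRCm38.p6 were matched for 7 of the 9 genes. The sequence upstream of the start is shown for Grem1, which encodes the antagonist, for Id2, which had the largest fall among the Id genes, and for Bmp4, the ligand that fell in the Boyden chamber. Capitals mark GGCGCC, a motif that Smad proteins are known to bind. Bases that lie in an exon of the gene in GENCODE are left out, which shortened the Id2 window to 89 bases. These 89 bases lie before the RefSeq start but inside the Id2 gene of GENCODE, between its exons, and not upstream of that gene.
Grem1, chr2:113758649-113758898, minus strand: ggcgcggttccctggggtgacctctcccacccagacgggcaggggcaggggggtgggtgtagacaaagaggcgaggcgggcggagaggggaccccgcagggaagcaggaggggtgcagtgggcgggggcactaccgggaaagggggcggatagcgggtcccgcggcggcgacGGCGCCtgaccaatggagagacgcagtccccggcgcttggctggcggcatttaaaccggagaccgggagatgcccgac
Id2, chr12:25096254-25096342, minus strand: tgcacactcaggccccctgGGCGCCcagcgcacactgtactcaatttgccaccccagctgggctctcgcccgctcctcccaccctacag
Bmp4, chr14:46390670-46390919, minus strand: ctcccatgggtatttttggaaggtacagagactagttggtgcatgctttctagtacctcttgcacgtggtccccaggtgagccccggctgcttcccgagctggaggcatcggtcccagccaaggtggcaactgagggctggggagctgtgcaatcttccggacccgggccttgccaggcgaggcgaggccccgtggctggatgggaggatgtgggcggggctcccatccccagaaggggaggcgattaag
GGCGCC, which is its own reverse complement, occurred once in the 250 bases before the RefSeq start of Grem1, Id2, Bmpr1a and Bmpr2. It did not occur in those of Bmp4, Smad6 and Id3. The windows of Id2, Bmpr1a, Bmpr2 and Id3 lie inside the gene as GENCODE annotates it, after its GENCODE start. For Bmpr2 and Id3 all 250 bases fall in exons, and for Bmpr1a 109 lie outside them. GGCGCC was present in 9.59% of the 32851 windows of this length in the RefSeq table. The 250 bases of Grem1 were 72.0% G and C, against a median of 52.4% over all windows. The shorter Smad motif GTCT, searched on both strands, occurred 4 times upstream of Grem1, but it was present in 82.9% of all windows. The BMP-responsive pair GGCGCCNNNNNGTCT, on either strand, was found in 0.0700% of windows and in none of these 7. A match in these letters is a description of the sequence, and no binding was measured here.

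Levels are given as CPM after TMM scaling of library sizes, and changes as log2 ratios with their standard error (SE). The 2-sided quasi-likelihood test of edgeR was run on all genes that passed its count filter, and a gene was called when its p, adjusted by Benjamini and Hochberg over all genes tested, was under 0.05. In 344SQ aggregates against CAFs alone 2 of the 6 members tested were called, Grem1 and Id3, both higher, while 5.84% of all 7992 genes tested were called. In 393P aggregates against CAFs alone 3 of 6 were called, Grem1 and Id3 higher and Id2 lower, with 10.7% of all genes called. Only Grem1 of these 6 was called in 344SQ aggregates against 393P aggregates, where 4.15% of genes were called. In the Boyden chamber 3 of the 8 members tested were called with 344SQ cells, Grem1, Id3 and Id1, all higher, with 14.9% of 14040 genes called. With 393P cells 4 of 8 were called, Grem1, Id3 and Id1 higher and Bmp4 lower, with 15.6% of genes called. When 1 technical library, number 1, 2 or 3, stood for each replicate, 1 member was called with 344SQ cells each time, and 2, 0 or 1 with 393P cells. None of the 8 was called by edgeR in 344SQ against 393P in the Boyden chamber, where 3.88% of genes were called and 3 members had an unadjusted p under 0.05, and none was called by DESeq2. None of 7 was called by either tool in shZEB1 against shCTL aggregates, nor had any an unadjusted p under 0.05. There edgeR called 0% of 7801 genes, with 466 at an unadjusted p under 0.05, and DESeq2 called 27. The members are few and were chosen with earlier results of these data known, and the comparisons share the libraries of CAFs alone. These counts are therefore a description.

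**Figure D1:**
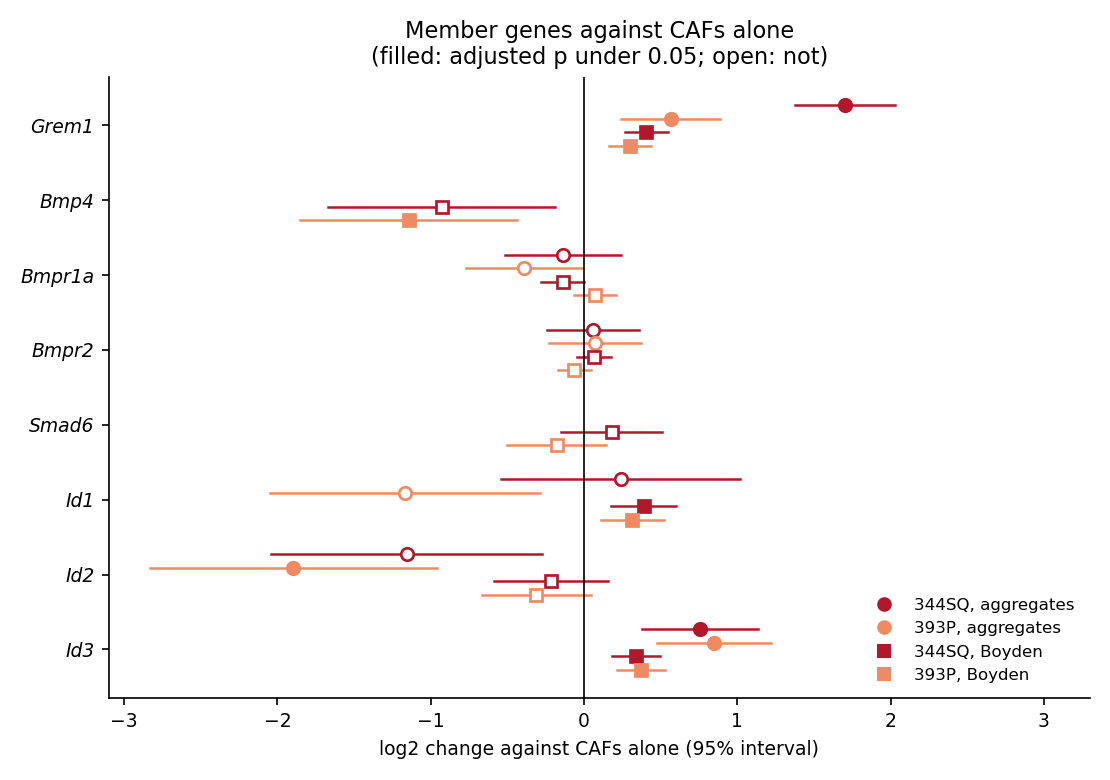
Log2 change against CAFs alone (x axis) of the 8 genes tested in at least 1 of 4 comparisons, with 95% intervals; circles are aggregates, squares the Boyden chamber, and filled symbols passed an adjusted p of 0.05. Grem1 lies to the right of 0 in all 4 comparisons, from 1.70 with 344SQ cells in aggregates to 0.30 with 393P cells in the Boyden chamber, and Bmpr1a and Bmpr2 have no filled symbol.

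Grem1 (ENSMUSG00000074934.3) lies at chr2:113746164-113758646 on the minus strand of mm10, and no other gene overlaps its exons. In aggregates it had 3754, 4689 and 3993 CPM with 344SQ cells, 2091, 1639 and 1927 CPM with 393P cells, and 1104, 1516 and 1206 CPM in CAFs alone. The 3 groups did not overlap, and each library with cancer cells was above each library of CAFs alone. In 344SQ aggregates Grem1 rose 3.25-fold over CAFs alone, a log2 change of 1.70 (SE 0.17, adjusted p = 6.34e-08), and the call held without each library in turn. Against 393P aggregates it was 2.20-fold higher in 344SQ aggregates, a log2 change of 1.14 (SE 0.16, adjusted p = 2.98e-05). In 393P aggregates it rose 1.48-fold over CAFs alone, a log2 change of 0.57 (SE 0.16, adjusted p = 0.0215). That call was lost without 393P replicate 1 or 3 or CAFs-alone replicate 1 or 3, with log2 changes of 0.46 to 0.55 and adjusted p of 0.0543 to 0.133. The comparisons with CAFs alone share the same 3 control libraries. Other cell markers differed between the same groups. The fibroblast markers summed to 4833 to 5198 CPM in 344SQ aggregates, 7278 to 8664 CPM in 393P aggregates and 3980 to 6714 CPM in CAFs alone. The 8 mural cell markers summed to 37.9 to 52.3 CPM in 344SQ aggregates, 171 to 268 CPM in 393P aggregates and 23.8 to 32.4 CPM in CAFs alone, with Higd1b at 0 throughout and Notch3 and Cspg4 carrying most of the sum. The 16 carcinoma and lung epithelial markers summed to 12.7 to 34.9 CPM in 344SQ aggregates, 19.9 to 101 CPM in 393P aggregates and 7.09 to 14.97 CPM in CAFs alone, with 5, 3 and 6 of the 16 at 0 in the same groups. Krt8, a keratin of simple epithelia, had 1.83 to 3.18 CPM in 344SQ aggregates, 0.794 to 39.3 CPM in 393P aggregates and 0 to 0.881 CPM in CAFs alone. Epcam was at 0 in 344SQ aggregates and in CAFs alone and had 0 to 0.794 CPM in 393P aggregates, and Cldn4, a claudin of epithelial junctions, had 0 to 11.0 CPM, 4.03 to 11.1 CPM and 0 to 1.01 CPM in 344SQ aggregates, 393P aggregates and CAFs alone. The part of these cells in the Grem1 values was not tested.

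**Figure D2:**
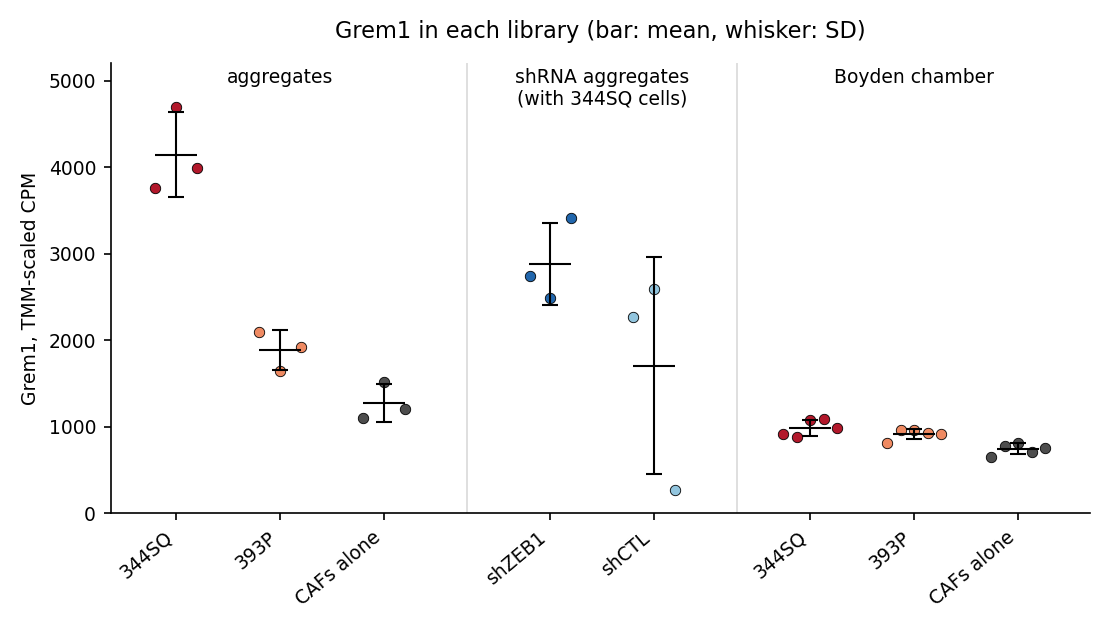
TMM-scaled CPM of Grem1 (y axis) in each library of the 8 groups; points are libraries, or sums of 3 technical libraries in the Boyden chamber, with the mean and SD of the group. The 3 libraries of 344SQ aggregates sit between 3754 and 4689 CPM, and 1 shCTL library sits at 269 CPM, far below the other two.

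Across the membrane of the Boyden chamber Grem1 had 912, 877, 1074, 1091 and 987 CPM with 344SQ cells, 812, 966, 959, 927 and 918 CPM with 393P cells, and 656, 783, 815, 712 and 759 CPM in CAFs alone. All 5 replicates with 344SQ cells were above all 5 of CAFs alone, while the lowest replicate with 393P cells fell just within the range of CAFs alone. Grem1 rose 1.33-fold with 344SQ cells (log2 change 0.41, SE 0.07, adjusted p = 0.000183) and 1.23-fold with 393P cells (log2 change 0.30, SE 0.07, adjusted p = 0.00487). Both calls held without each replicate in turn. The technical libraries of 1 replicate did not give the same level. In 344SQ replicate 5 they had 1622, 1418 and 648 CPM of the total count, on 289848, 1575071 and 2318025 counts. The libraries numbered 1 ran from 1088 to 1622 CPM with 344SQ cells, 989 to 1447 CPM with 393P cells and 661 to 1063 CPM in CAFs alone, and those numbered 3 from 616 to 980, 762 to 831 and 563 to 737 CPM in the same groups. A sum weights its technical libraries by depth, and the mix differed between groups. Libraries numbered 1 held 289848 to 1803631 counts with 344SQ cells, 1300854 to 2367545 with 393P cells and 1895296 to 2724947 in CAFs alone. The part of this mix in the changes of the sums was not tested. With technical library 1, 2 or 3 of each replicate alone the log2 change of Grem1 with 344SQ cells was 0.70, 0.65 or 0.31 (adjusted p = 0.00263, 0.0184 and 0.129). For 393P cells it was 0.54, 0.18 or 0.31 (adjusted p = 0.0177, 0.706 and 0.0901). The call thus held with 2 of the 3 technical libraries for 344SQ cells and with 1 of 3 for 393P cells, and the fits with library 2 or 3 were run after the values were seen. The fibroblast markers summed to 6801 to 7532 CPM with 344SQ cells, 7482 to 7845 CPM with 393P cells and 8759 to 9216 CPM in CAFs alone, and their part in the result was not tested. Between 344SQ and 393P cells the log2 change was 0.11, with a 95% interval of -0.03 to 0.25 and an adjusted p of 0.493.

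The difference between the formats was tested in a joint fit of the aggregate and Boyden tables, as the log2 change in aggregates minus that in the Boyden chamber. That fit shares its estimate of the spread over both tables, with a common coefficient of variation of 9.50%. Fitted alone, the aggregates had 16.2% and the Boyden sums 8.58%. SEs and p-values of these differences can thus be too small. For Grem1 with 344SQ cells the SE was 0.15, against 0.17 for its change in aggregates alone. The 344SQ change of Grem1 was larger in aggregates by 1.34 (SE 0.15, adjusted p = 9.61e-09), and this held in each of 24 fits without 1 library. For 393P cells the difference was 0.34 (SE 0.15), with an adjusted p of 0.151. It passed the threshold only without CAFs-alone aggregate replicate 2, at 0.47 with an adjusted p of 0.0437. With technical library 1, 2 or 3 alone the 344SQ difference was 1.03, 1.09 or 1.45 (adjusted p = 0.00393, 0.00600 and 5.89e-06) and the 393P difference 0.077, 0.44 or 0.32, with adjusted p of 0.361 to 0.908. Of the 8 members in these fits 1 was called for 344SQ cells, Grem1, with 4.73% of 15193 genes called. For 393P cells 2 were called, Id1 and Id2, with 8.98% of genes called. Bmp4 was among the 8, but it had 0 counts in every aggregate library, so its difference could not be measured. The formats were sequenced as separate sets of libraries of different depth and makeup. Genes like ribosomal RNA took 19.3% to 25.0% of counts in the aggregates, against 0.941% to 1.69% in the Boyden sums, the top 10 genes of a library 45.3% to 53.3%, against 14.8% to 18.4%, and mitochondrial genes 19.0% to 24.3%, against 10.8% to 14.97%. Format and library set cannot be told apart.

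In the shRNA set Grem1 had 2746, 2484 and 3408 CPM in shZEB1 aggregates, against 2267, 2586 and 269 CPM in shCTL aggregates. The groups overlapped, and 1 shCTL library was far below the other 5. That library had the highest carcinoma marker sum, 1746 CPM, and the lowest fibroblast marker sum, 1726 CPM, of the set. The next highest carcinoma marker sums, 1293 and 605 CPM, were in shZEB1 replicates 2 and 3, where Grem1 had 2484 and 3408 CPM. The log2 change was 0.75 (SE 0.60), with a 95% interval of -0.42 to 1.92 and an adjusted p of 0.855, and without the low shCTL library it was 0.25. Without the 3 libraries that held over 500 CPM of carcinoma markers it was 0.19, an alternative chosen after the values were seen. Mitochondrial genes took 40.8%, 36.2% and 26.1% of counts in shCTL replicates 1, 2 and 3, against 23.5% to 27.6% in shZEB1 aggregates. The top 10 genes took 62.2%, 60.3% and 47.7% in the same shCTL libraries, against 46.3% to 53.8% in shZEB1 aggregates. The part of these differences in the comparison was not tested. The median log2 change of the 7 members tested was 0.21, against -0.02 over all genes tested.

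Ordered by mean level, Grem1 stood at 4146 ± 486 CPM in 344SQ aggregates and 2879 ± 476 CPM in shZEB1 aggregates, followed by 1886 ± 229 CPM in 393P aggregates and 1707 ± 1256 CPM in shCTL aggregates (SD, n = 3 each). CAFs alone in aggregates had 1275 ± 215 CPM (SD, n = 3). The Boyden groups came last, with 988 ± 94.97 CPM for 344SQ, 917 ± 61.8 CPM for 393P and 745 ± 62.2 CPM for CAFs alone (SD, n = 5 each). Libraries overlapped between neighbours in this order for shCTL and the groups on either side of it, for 344SQ and 393P in the Boyden chamber, and for 393P and CAFs alone in the Boyden chamber. The tables were scaled separately, so the order across them is a description.

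The ligands were at or near 0. Bmp2 (ENSMUSG00000027358.6, chr2:133552159-133562885, plus strand) had 0 to 2 counts in each aggregate and shRNA library and 0 counts in all 15 Boyden sums. A count of 0 allows up to 3 counts, or 0.354 to 0.704 CPM, in the Boyden sums and 2.38 to 3.96 CPM in the aggregates, and these limits cover counting error only. Bmp4 (ENSMUSG00000021835.14, chr14:46383520-46390669, minus strand), which shares exonic bases with Gm15217 on the other strand, had 0 counts in all 9 aggregate libraries. In the shRNA set it had 10, 1 and 6 counts in shZEB1 aggregates, against 6, 10 and 6 counts in shCTL aggregates. The Boyden sums of Bmp4 were 1.91, 1.21, 0, 1.53 and 1.64 CPM with 344SQ cells, 1.12, 1.28, 0.948, 0.304 and 1.74 CPM with 393P cells, and 1.94, 2.74, 2.13, 2.38 and 2.87 CPM in CAFs alone. All 10 replicates with cancer cells were below all 5 of CAFs alone, on counts of 0 to 12 against 13 to 23. Bmp4 fell with 393P cells by 1.14 on the log2 scale (SE 0.36, adjusted p = 0.0323), a call lost without any 1 of 6 replicates, 393P replicates 1, 3 and 4 and CAFs-alone replicates 2, 4 and 5, with adjusted p of 0.0548 to 0.0981. With 344SQ cells its log2 change was -0.93 (SE 0.38, adjusted p = 0.103). Neither ligand gave a test in the aggregates, and Bmp4 gave none with a single technical library per replicate.

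Both receptors were present in every library and were called in no comparison. Bmpr1a (ENSMUSG00000021796.14, chr14:34410734-34503341, minus strand), a type I receptor whose exons overlap the antisense gene Gm17110, had 86.4 to 103 CPM in 344SQ aggregates, 72.1 to 90.1 CPM in 393P aggregates and 74.0 to 121 CPM in CAFs alone. Its Boyden levels were 151 to 188 CPM with 344SQ cells, 180 to 224 CPM with 393P cells and 178 to 205 CPM in CAFs alone. Its log2 change was -0.14 with 344SQ cells in aggregates (95% interval -0.51 to 0.24) and -0.39 with 393P cells (-0.77 to -0.01). The last interval leaves out 0 only because it is approximate, as the edgeR test gave an unadjusted p of 0.0523. Across the membrane it was -0.14 with 344SQ cells (-0.28 to 0.00) and 0.07 with 393P cells (-0.07 to 0.21). Bmpr1a passed the threshold between 344SQ and 393P cells only without 344SQ Boyden replicate 4, at -0.25 with an adjusted p of 0.0472, or without the count filter. Its 393P change in aggregates minus that in the Boyden chamber was -0.40 (adjusted p = 0.190), and passed only without CAFs-alone aggregate replicate 2, at -0.58 with an adjusted p of 0.0305.

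Bmpr2 (ENSMUSG00000067336.6, chr1:59763400-59879014, plus strand), the type II receptor, had 355, 349 and 357 CPM in 344SQ aggregates, 384, 381 and 305 CPM in 393P aggregates, and 304, 378 and 339 CPM in CAFs alone. The groups overlapped, and the log2 change was 0.06 with 344SQ cells (95% interval -0.24 to 0.36) and 0.07 with 393P cells (-0.23 to 0.37). Its Boyden levels were 392 to 449 CPM with 344SQ cells, 372 to 409 CPM with 393P cells and 382 to 438 CPM in CAFs alone, with log2 changes of 0.07 (-0.04 to 0.18) and -0.06 (-0.17 to 0.05) against CAFs alone for 344SQ and 393P cells. In the shRNA set it had 177 to 243 CPM in shZEB1 aggregates, against 152 to 221 CPM in shCTL aggregates, with a log2 change of 0.11 (-0.70 to 0.92).

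Smad6 (ENSMUSG00000036867.7, chr9:63953076-64022059, minus strand), an inhibitory Smad that BMP signals are known to induce, was low and did not pass the count filter in the aggregates. It had 6.17, 6.06 and 9.33 CPM with 344SQ cells, 4.69, 14.3 and 7.31 CPM with 393P cells, and 6.89, 2.64 and 4.18 CPM in CAFs alone, on counts of 2 to 18. Its Boyden levels were 6.94 to 10.1 CPM with 344SQ cells, 4.78 to 9.27 CPM with 393P cells and 6.36 to 7.92 CPM in CAFs alone. The groups overlapped, and the log2 change was 0.18 with 344SQ cells (95% interval -0.15 to 0.51) and -0.18 with 393P cells (-0.50 to 0.14). In the shRNA set its log2 change was 0.28 with an interval of -1.47 to 2.02.

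**Figure D3:**
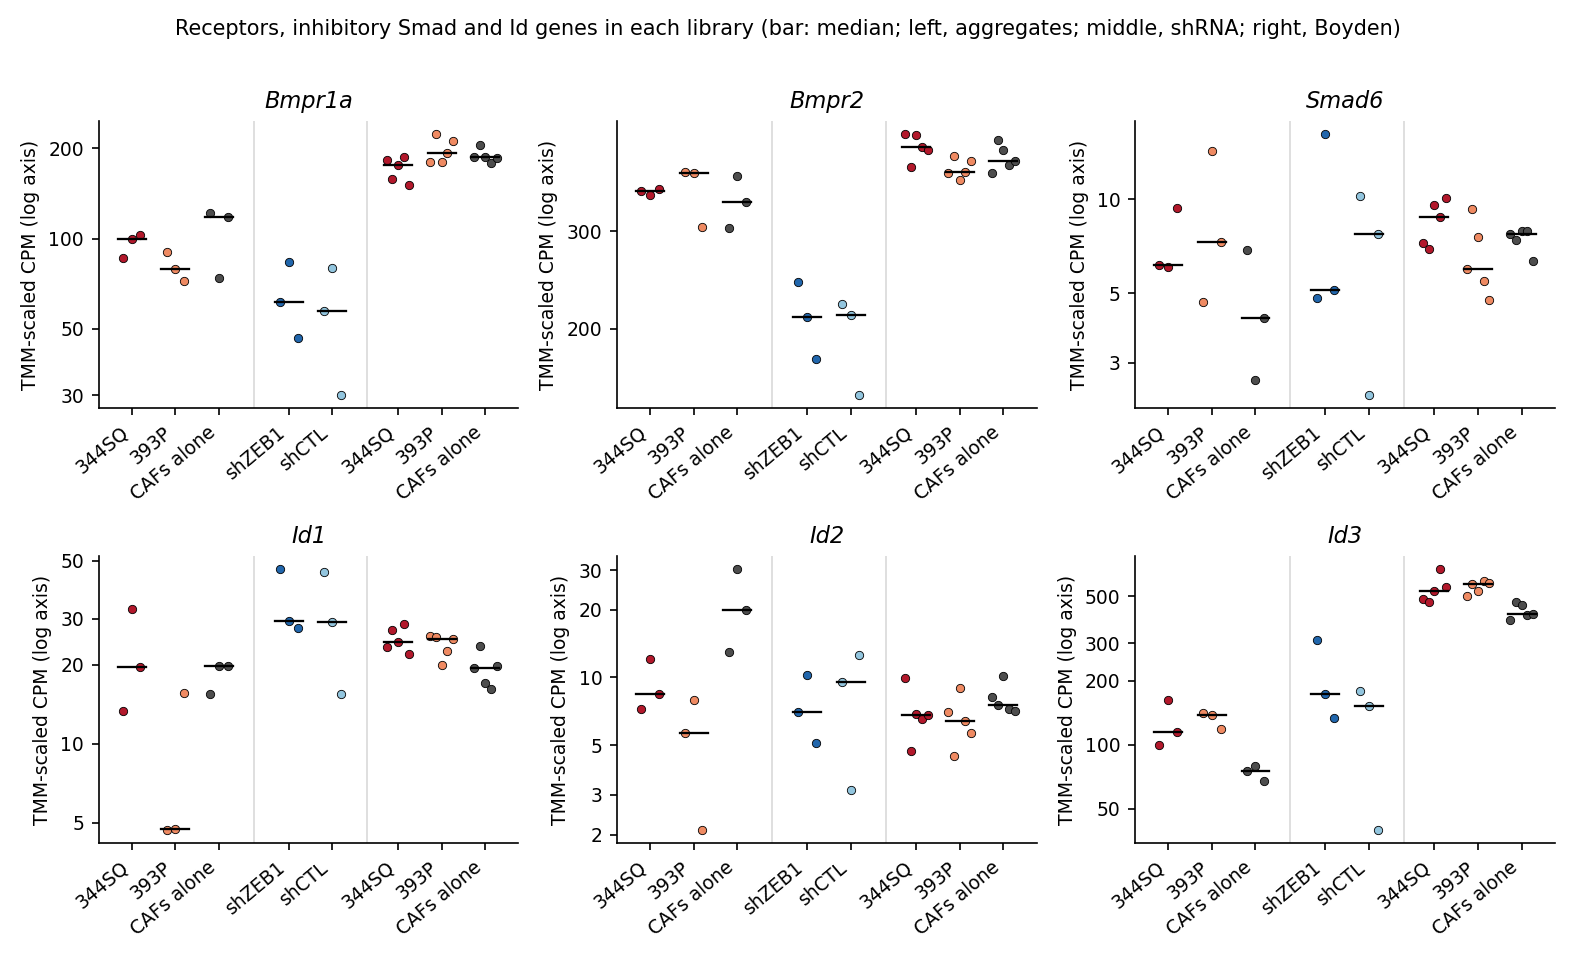
TMM-scaled CPM on a log axis (y axis) of the receptors, Smad6 and the Id genes in each library of the 8 groups, with the group median as a bar. Id3 in CAFs alone lies below both groups with cancer cells in aggregates, Id2 in CAFs alone lies above both, and the 2 receptors overlap between groups in each format.

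The Id genes encode proteins that bind helix-loop-helix transcription factors and keep them from DNA, and they are classical targets of BMP signalling. In aggregates Id3 rose with both lines, Id2 fell with 393P cells, and Id1 was not called. Id3 (ENSMUSG00000007872.3, chr4:136143497-136145755, plus strand) had 99.7, 162 and 115 CPM in 344SQ aggregates, 142, 139 and 118 CPM in 393P aggregates, and 75.0, 79.3 and 67.9 CPM in CAFs alone. All 6 libraries with cancer cells were above all 3 of CAFs alone. Id3 rose 1.69-fold with 344SQ cells (log2 change 0.76, SE 0.19, adjusted p = 0.0132) and 1.80-fold with 393P cells (log2 change 0.85, SE 0.19, adjusted p = 0.00228). The 344SQ call was lost without 344SQ replicate 2 or CAFs-alone replicate 1 or 3, with adjusted p of 0.0529 to 0.129, and the 393P call held without each library in turn. Between 344SQ and 393P aggregates the log2 change was -0.09 (95% interval -0.45 to 0.26).

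Levels of Id3 in the Boyden chamber were 483, 469, 527, 673 and 555 CPM with 344SQ cells, 501, 568, 528, 589 and 575 CPM with 393P cells, and 388, 469, 457, 406 and 414 CPM in CAFs alone. The replicates with 393P cells were all above those of CAFs alone, and 1 replicate with 344SQ cells fell within their range. Id3 rose 1.27-fold with 344SQ cells (log2 change 0.34, SE 0.08, adjusted p = 0.00422) and 1.29-fold with 393P cells (log2 change 0.37, SE 0.08, adjusted p = 0.00235). Both calls held without each replicate in turn and were lost with technical library 1 or 2 of each replicate alone, at adjusted p of 0.0739 to 0.493, but not with library 3. The change was larger in aggregates by 0.45 (SE 0.20, adjusted p = 0.226) for 344SQ cells and 0.55 (SE 0.19, adjusted p = 0.0643) for 393P cells, and neither difference passed the threshold. The 393P difference passed it without 393P aggregate replicate 3, 344SQ aggregate replicate 2 or 344SQ Boyden replicate 4, at adjusted p of 0.0399 to 0.0433. In the shRNA set Id3 had 311, 173 and 133 CPM in shZEB1 aggregates, against 178, 152 and 39.7 CPM in shCTL aggregates, with a log2 change of 0.74 (SE 0.56, adjusted p = 0.853). The lowest value was again that of the shCTL library with the most carcinoma markers.

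Id1 (ENSMUSG00000042745.9, chr2:152736251-152737410, plus strand) had 13.4, 32.7 and 19.6 CPM in 344SQ aggregates, 4.69, 4.76 and 15.7 CPM in 393P aggregates, and 15.5, 19.8 and 19.9 CPM in CAFs alone, on counts of 5 to 27. The groups overlapped, since 1 library with 393P cells was close to CAFs alone. Its log2 change was 0.24 with 344SQ cells (SE 0.40, adjusted p = 0.838) and -1.17 with 393P cells (SE 0.45, adjusted p = 0.102), and 1.41 in 344SQ against 393P aggregates (SE 0.44, adjusted p = 0.0729). Without 393P replicate 3 the 393P value passed the threshold at -1.91 (adjusted p = 0.0106), and without 393P replicate 3 or 344SQ replicate 1 the difference between the lines did, at 1.66 to 2.16. The Boyden sums of Id1 were 23.5, 27.1, 24.4, 28.6 and 22.1 CPM with 344SQ cells, 25.7, 25.6, 20.1, 22.7 and 25.2 CPM with 393P cells, and 19.5, 23.6, 17.1, 16.2 and 19.8 CPM in CAFs alone. The groups overlapped through CAFs-alone replicate 2. Id1 rose there with 344SQ cells by 0.39 on the log2 scale (SE 0.11, adjusted p = 0.0148) and with 393P cells by 0.31 (SE 0.10, adjusted p = 0.0427). The 344SQ call was lost with each of the 3 technical libraries alone, at adjusted p of 0.0652 to 0.355, and the 393P call with DESeq2, at 0.0524, and with technical library 2 or 3, at log2 changes of -0.04 and 0.50. The 393P call was also lost in 8 of the 15 fits without 1 replicate, those without 393P replicate 1, 2, 4 or 5 or CAFs-alone replicate 1, 3, 4 or 5, at adjusted p of 0.0560 to 0.118. For 393P cells the change in aggregates minus that in the Boyden chamber was -1.43 (SE 0.41, adjusted p = 0.0165), and the call was lost without 393P aggregate replicate 1 or 2 or CAFs-alone aggregate replicate 3, at adjusted p of 0.0607 to 0.111, or with technical library 2 alone, at -1.09 and 0.221. For 344SQ cells the same difference was -0.11 (SE 0.35, adjusted p = 0.946).

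Id2 (ENSMUSG00000020644.8, chr12:25093799-25097140, minus strand) had 7.20, 12.1 and 8.40 CPM in 344SQ aggregates, 5.63, 7.93 and 2.09 CPM in 393P aggregates, and 12.9, 30.4 and 19.9 CPM in CAFs alone, on counts of 2 to 23. All 6 libraries with cancer cells were below all 3 of CAFs alone. Id2 fell with 393P cells by 1.90 on the log2 scale (SE 0.48, adjusted p = 0.00670), and the call was lost only without CAFs-alone replicate 2, at -1.57 with an adjusted p of 0.0709. With 344SQ cells its log2 change was -1.16 (SE 0.45, adjusted p = 0.153). Its Boyden levels were 4.69 to 9.94 CPM with 344SQ cells, 4.48 to 9.01 CPM with 393P cells and 7.11 to 10.2 CPM in CAFs alone, with overlap and log2 changes of -0.21 (SE 0.19) and -0.31 (SE 0.18) against CAFs alone. The 393P change in aggregates minus that in the Boyden chamber was -1.49 (SE 0.48, adjusted p = 0.0389). That call was lost without 393P replicate 1 or 3 of either format, CAFs-alone aggregate replicate 2 or 3 or CAFs-alone Boyden replicate 4 or 5, at -1.50 to -1.15 with adjusted p of 0.0526 to 0.166. It was also lost with technical library 1 or 2 alone, at -1.04 and -1.52 with adjusted p of 0.346 and 0.0555, and with limma voom, at -1.50 and 0.112. In the shRNA set Id1 had 27.5 to 46.5 CPM in shZEB1 aggregates, against 15.5 to 45.1 CPM in shCTL aggregates, and Id2 had 5.13 to 10.3 CPM in shZEB1 aggregates, against 3.15 to 12.6 CPM in shCTL aggregates.

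A further 55 genes of the pathway were counted by role: 12 ligands, 15 extracellular antagonists, 11 receptors and co-receptors, 7 Smads and ubiquitin ligases, and 10 targets. This list, too, was drawn up with earlier results of these data known. In the aggregates 22 of them passed the count filter, none of them a ligand. With 344SQ cells 4 were called, 2 higher and 2 lower, where 5.84% of all genes were called, and with 393P cells 6 were called, 3 higher and 3 lower, where 10.7% were. The median log2 change of the 22 was 0.08 with 344SQ cells and 0.10 with 393P cells, against -0.01 and 0.00 over all genes tested. Of the same genes 28 were tested in the Boyden chamber, and 4 were called with each line, 3 higher and 1 lower, while 14.9% of all genes were called with 344SQ and 15.6% with 393P cells. That is a share near the background, with medians of 0.04 for 344SQ and -0.01 for 393P cells against 0.01 and 0.00 over all genes. In shZEB1 against shCTL aggregates none of 21 was called by edgeR or had an unadjusted p under 0.05, and none of the 15 also run with DESeq2 was called. The changes in aggregates and in the Boyden chamber differed for 4 of 31 genes with 344SQ cells, Fst and Runx2 higher and Bmper and Tgfbr3 lower in aggregates, and for 8 of 31 with 393P cells, with 4.73% and 8.98% of all genes called. Of the 8, Hey1 passed the filter of the joint fit through the 393P aggregates, where it was high. The ligands among the 31 did not pass the count filter in the aggregates by themselves, so their differences could hardly be measured. In 344SQ against 393P cells 2 of 22 were called in aggregates, with 4.15% of all genes called. In the Boyden chamber 2 of 28 were called, with 3.88% of all genes called.

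Among the other antagonists Fst, the activin-binding protein follistatin, rose in aggregates and Bmper, a secreted BMP-binding regulator, fell. Fst had 35.0 to 46.6 CPM in 344SQ aggregates and 29.1 to 80.4 CPM in 393P aggregates, against 12.9 to 22.0 CPM in CAFs alone, with log2 changes of 1.23 (SE 0.34, adjusted p = 0.0237) and 1.75 (SE 0.32, adjusted p = 0.000238). The 344SQ call of Fst was lost without 344SQ replicate 3 or CAFs-alone replicate 1 or 2, at adjusted p of 0.0691 to 0.141, and with DESeq2, at 0.0657. Bmper had 69.1 to 105 CPM in 344SQ aggregates and 70.4 to 96.1 CPM in 393P aggregates, against 178 to 219 CPM in CAFs alone, with log2 changes of -1.17 (SE 0.18, adjusted p = 5.16e-05) and -1.22 (SE 0.18, adjusted p = 1.12e-05). Fstl1, a follistatin-like glycoprotein, rose with 393P cells by 0.65 (SE 0.19, adjusted p = 0.0231), a call lost without 393P replicate 1 or CAFs-alone replicate 2 or 3, at adjusted p of 0.0698 to 0.170. Across the membrane Bmper rose with 393P cells by 0.19 (SE 0.07, adjusted p = 0.0481), and this call was lost in 8 of 15 fits without 1 replicate, with the replicate left out being any of 393P 1, 2, 4 or 5 or CAFs alone 1, 3, 4 or 5, at adjusted p of 0.0505 to 0.140. The changes of Bmper were lower in aggregates than in the Boyden chamber for both lines, by -1.14 (SE 0.16, adjusted p = 4.12e-06) for 344SQ and -1.33 (SE 0.16, adjusted p = 3.88e-08) for 393P cells. The change of Fst was higher in aggregates than in the Boyden chamber by 1.16 for 344SQ (SE 0.33, adjusted p = 0.0249) and 1.85 for 393P cells (SE 0.30, adjusted p = 1.61e-05), and that of Fstl1 by 0.70 for 393P cells (SE 0.18, adjusted p = 0.00672). The 344SQ difference of Fst was lost without 344SQ aggregate replicate 3 or CAFs-alone aggregate replicate 1 or 2, at adjusted p of 0.0710 to 0.140, with limma voom, or with technical library 1 or 3, and that of Fstl1 without CAFs-alone aggregate replicate 3, at 0.0558, or with technical library 2. Exons of Fst overlap the antisense gene Gm47040, and the strand setting of the counts is not known.

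Among the receptors and co-receptors Tgfbr3, the co-receptor betaglycan, went in opposite directions in the 2 formats with 344SQ cells. It had 217 to 330 CPM in 344SQ aggregates and 129 to 147 CPM in 393P aggregates, against 324 to 458 CPM in CAFs alone. It fell in aggregates by 0.56 with 344SQ cells (SE 0.17, adjusted p = 0.0442) and by 1.52 with 393P cells (SE 0.18, adjusted p = 1.92e-07), and the 344SQ call was lost without 344SQ replicate 2 or 3 or CAFs-alone replicate 1 or 3, at adjusted p of 0.0906 to 0.262, and with DESeq2, without the count filter or in a fit of only these groups, at 0.0544 to 0.0672. Its Boyden levels were 328 to 358 CPM with 344SQ cells, 259 to 293 CPM with 393P cells and 236 to 262 CPM in CAFs alone, and rose with 344SQ cells by 0.45 (SE 0.06, adjusted p = 1.96e-06). The change in aggregates minus that in the Boyden chamber was -0.97 for 344SQ (SE 0.15, adjusted p = 1.59e-05) and -1.56 for 393P cells (SE 0.16, adjusted p = 3.20e-10). Rgma, a BMP co-receptor of the repulsive guidance family, had 74.6 to 92.1 CPM in 344SQ aggregates, 32.4 to 44.4 CPM in 393P aggregates and 59.5 to 114 CPM in CAFs alone, and fell with 393P cells by 1.17 (SE 0.23, adjusted p = 0.000492). Its 393P change was lower in aggregates than in the Boyden chamber by -1.07 (SE 0.26, adjusted p = 0.00441), a call lost without CAFs-alone aggregate replicate 1, at 0.0879, or with technical library 1. In 344SQ against 393P aggregates Tgfbr3 was higher by 0.96 (SE 0.18, adjusted p = 0.000634) and Rgma by 1.13 (SE 0.23, adjusted p = 0.00182), and both calls held without each library in turn. Across the membrane Tgfbr3 was higher with 344SQ than with 393P cells by 0.34 (SE 0.06, adjusted p = 0.000314), a call lost with technical library 1 alone, at 0.581. Exons of Tgfbr3 and Rgma overlap other annotated genes, Gm43422 and A730056A06Rik.

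No Smad or ubiquitin ligase of the 7 tested was called by edgeR in aggregates with either line, where 1 had an unadjusted p under 0.05 with 344SQ cells and 3 with 393P cells, and DESeq2 called none of the 5 it was run on. The 7 had median log2 changes of 0.02 with 344SQ and 0.18 with 393P cells. Across the membrane Smurf2, a ubiquitin ligase that targets Smads and receptors, rose with 344SQ cells by 0.32 (SE 0.06, adjusted p = 0.000217) and with 393P cells by 0.35 (SE 0.06, adjusted p = 0.000132), with no overlap with CAFs alone; its exons hold the miRNA gene Gm27322. Smad9, a BMP-activated Smad, fell there with 344SQ cells by 0.35 (SE 0.10, adjusted p = 0.0200), a call lost without 344SQ replicate 4 or 5 or CAFs-alone replicate 3, at adjusted p of up to 0.0616. Smad4, the common partner Smad, had 90.5 to 110 CPM in 344SQ aggregates, 123 to 147 CPM in 393P aggregates and 93.0 to 107 CPM in CAFs alone, with log2 changes of 0.02 (SE 0.18) and 0.44 (SE 0.17, adjusted p = 0.106). Its 393P change was higher in aggregates than in the Boyden chamber by 0.52 (SE 0.15, adjusted p = 0.0135). That call was lost without 393P aggregate replicate 2 or CAFs-alone aggregate replicate 3, at adjusted p of 0.0520 to 0.101, and with each technical library alone, limma voom or no count filter, at 0.0511 to 0.168. Smad7, an inhibitory Smad like Smad6, had 45.7 to 55.6 CPM with 344SQ cells in the Boyden chamber, 39.7 to 45.6 CPM with 393P cells and 43.6 to 50.4 CPM in CAFs alone. It was called between 344SQ and 393P cells there, at 0.27 (SE 0.07, adjusted p = 0.0379). The Smad7 call was lost in 8 of 15 fits without 1 replicate, any of 393P 1, 3, 4 or 5, 344SQ 1, 2 or 5 or CAFs alone 4, at adjusted p of 0.0538 to 0.157, and with each technical library alone or no count filter, at 0.0815 to 0.928. Of the other targets Runx2, a transcription factor of bone formation, rose in aggregates by 0.71 with 344SQ cells (SE 0.18, adjusted p = 0.0100) and by 1.06 with 393P cells (SE 0.17, adjusted p = 4.91e-05). The 344SQ call of Runx2 was lost without CAFs-alone replicate 1 or 3, at adjusted p of 0.0634 and 0.0926, and its exons overlap the antisense gene Runx2os1. Its change was higher in aggregates than in the Boyden chamber by 0.70 for 344SQ (SE 0.17, adjusted p = 0.00533) and 0.87 for 393P cells (SE 0.16, adjusted p = 0.000109), and the 344SQ difference was lost with each technical library alone, at adjusted p of 0.0531 to 0.135. Hey1, a transcription factor that Notch and BMP signals are known to induce, had 4, 0 and 0 counts in 344SQ aggregates, 9, 21 and 10 counts in 393P aggregates and 2, 0 and 0 counts in CAFs alone, and 0 to 9 counts in each Boyden sum. It did not pass the count filter in either table, but did in the joint fit, where its 393P change differed between the formats with an adjusted p of 0.000664. It entered that fit through its counts in 393P aggregates, the group in which it was high, so this p is no independent support. The fitted size rests on libraries at 0 and is no bound. Runx2 also rose with 393P cells in the Boyden chamber, by 0.26 (SE 0.08, adjusted p = 0.0209), where Atoh8, a helix-loop-helix transcription factor, fell by 0.28 (SE 0.09, adjusted p = 0.0320). The Runx2 call there was lost without 393P replicate 4 or 5 or CAFs-alone replicate 3 or 5, and that of Atoh8 without 393P replicate 2, 3, 4 or 5 or CAFs-alone replicate 1, 4 or 5, at adjusted p of 0.0515 to 0.0993. With 1 technical library per replicate the calls of Smad9 and Atoh8, and that of Bmper with 393P cells, were lost with each of the 3. That of Smurf2 with 393P cells was lost with library 2, and that of Runx2 with library 1, at a log2 change of -0.073, and with library 2. Bmp6, the only other ligand called in a comparison, rose in the Boyden chamber with 344SQ cells by 0.77 (SE 0.24, adjusted p = 0.0314) at 1.97 to 4.69 CPM, against 1.77 to 2.25 CPM in CAFs alone. That call was lost without 344SQ replicate 1 or 2 or CAFs-alone replicate 1, 2 or 3, at adjusted p of 0.0561 to 0.107, and with DESeq2, the replicate block or no count filter, at 0.0625 to 0.0915; exons of Bmp6 overlap Txndc5 on the other strand.

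The genes of highest level in a role with no call were also looked at. Smurf1, a ubiquitin ligase for Smads, had 77.6 to 134 CPM in 344SQ aggregates, 113 to 127 CPM in 393P aggregates and 89.6 to 168 CPM in CAFs alone, and Acvr1, a type I receptor, had 62.5 to 73.2 CPM with 344SQ cells, 67.2 to 71.0 CPM with 393P cells and 67.1 to 72.1 CPM in CAFs alone in the Boyden chamber. Twsg1, an extracellular BMP-binding protein, had 111 to 126 CPM, 117 to 133 CPM and 109 to 135 CPM in the same 3 Boyden groups. Gdf6, a ligand of the BMP family, had 8.68 to 11.5 CPM, 8.52 to 12.9 CPM and 8.50 to 9.48 CPM there, and 0 or 1 count in each aggregate library. In shRNA libraries the ligand Bmp3 had 3.84 to 29.3 CPM in shZEB1 aggregates, against 7.74 to 19.8 CPM in shCTL aggregates, and the co-receptor Eng 46.1 to 64.5 CPM in shZEB1 aggregates, against 48.4 to 83.4 CPM in shCTL aggregates. The ranges overlapped between the groups for each of these 6 genes.

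**Figure D4:**
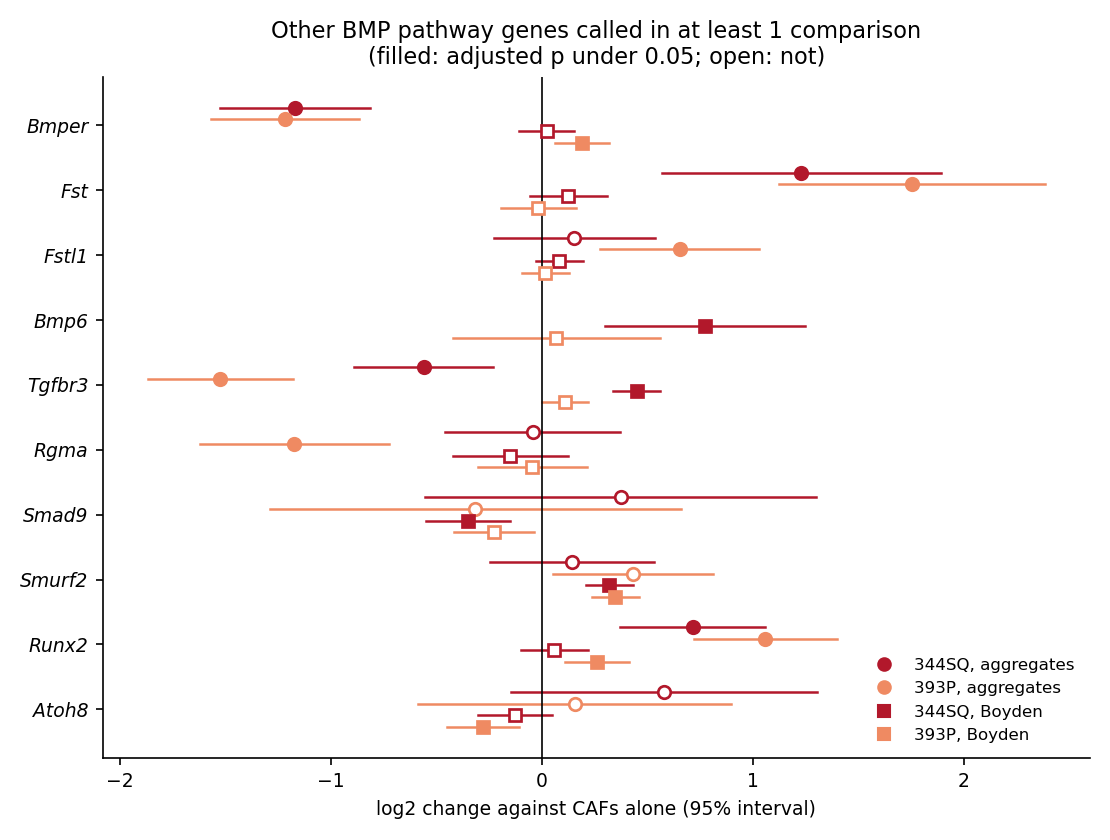
Log2 change against CAFs alone (x axis) of the 10 other pathway genes called in at least 1 of 4 comparisons, with 95% intervals; circles are aggregates, squares the Boyden chamber, and filled symbols passed an adjusted p of 0.05. Bmper, Fst and Runx2 have filled circles for both lines in aggregates, and Tgfbr3 lies left of 0 in aggregates, at -0.56 and -1.52, and right of 0 with 344SQ cells in the Boyden chamber, at 0.45.

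To compare levels between genes, CPM were divided by the exon length of each gene in GENCODE M21 and summed by role. The 14 ligands, Bmp2 and Bmp4 among them, summed to 0.940 ± 0.168 CPM per kb in 344SQ aggregates, 0.367 ± 0.149 in 393P aggregates and 0.649 ± 0.360 in CAFs alone (SD, n = 3 each), on 1 to 4 counts per library. The 16 antagonists summed to 1135 ± 88.9 CPM per kb in 344SQ aggregates, 615 ± 55.3 in 393P aggregates and 452 ± 51.8 in CAFs alone (SD, n = 3 each). The shRNA set had the highest ligand sums of the 8 groups, 6.80 ± 1.15 CPM per kb in shZEB1 aggregates and 10.4 ± 3.47 in shCTL aggregates (SD, n = 3 each), on 30 to 60 counts per library. Its antagonists summed to 831 ± 74.6 CPM per kb in shZEB1 aggregates and 529 ± 354 in shCTL aggregates (SD, n = 3 each), where the library low for Grem1 had 123. The Boyden sums of the antagonists came to 522 ± 35.4 CPM per kb with 344SQ cells, 497 ± 25.9 with 393P cells and 451 ± 24.0 in CAFs alone, and the ligands to 4.41 ± 0.398, 4.29 ± 0.492 and 4.33 ± 0.325 in the same groups (SD, n = 5 each). Grem1 alone gave 84.7% to 91.5% of the antagonist sum in 344SQ aggregates, 71.4% to 76.4% in 393P aggregates and 61.4% to 71.6% in CAFs alone, and 79.0% to 90.6% in shZEB1 aggregates, against 52.9% to 81.6% in shCTL aggregates. Across the membrane its share was 43.6% to 46.8% with 344SQ cells, 42.3% to 46.0% with 393P cells and 38.0% to 41.2% in CAFs alone, where Fstl1 had a level of 214 CPM per kb and Grem1 180 CPM per kb. The 13 receptors and co-receptors summed to 128 ± 6.28 CPM per kb in 344SQ aggregates, 94.6 ± 6.27 in 393P aggregates and 147 ± 14.3 in CAFs alone (SD, n = 3 each), and to 83.5 ± 7.70 in shZEB1 and 79.3 ± 29.4 in shCTL aggregates (SD, n = 3 each). The tables were scaled separately, and the shRNA libraries also held the most carcinoma markers. Their mural markers summed to 244 to 576 CPM in shZEB1 and 262 to 388 CPM in shCTL aggregates. The mural marker Rgs5 had 53.0 to 166 CPM in shZEB1 and 99.2 to 155 CPM in shCTL aggregates. In each library of the other aggregates Rgs5 had at most 1 count. The part of these markers in the ligand sums was not tested. The sums count RNA in sorted CAFs, and BMP ligands made by the cancer cells were not measured here.

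**Figure D5:**
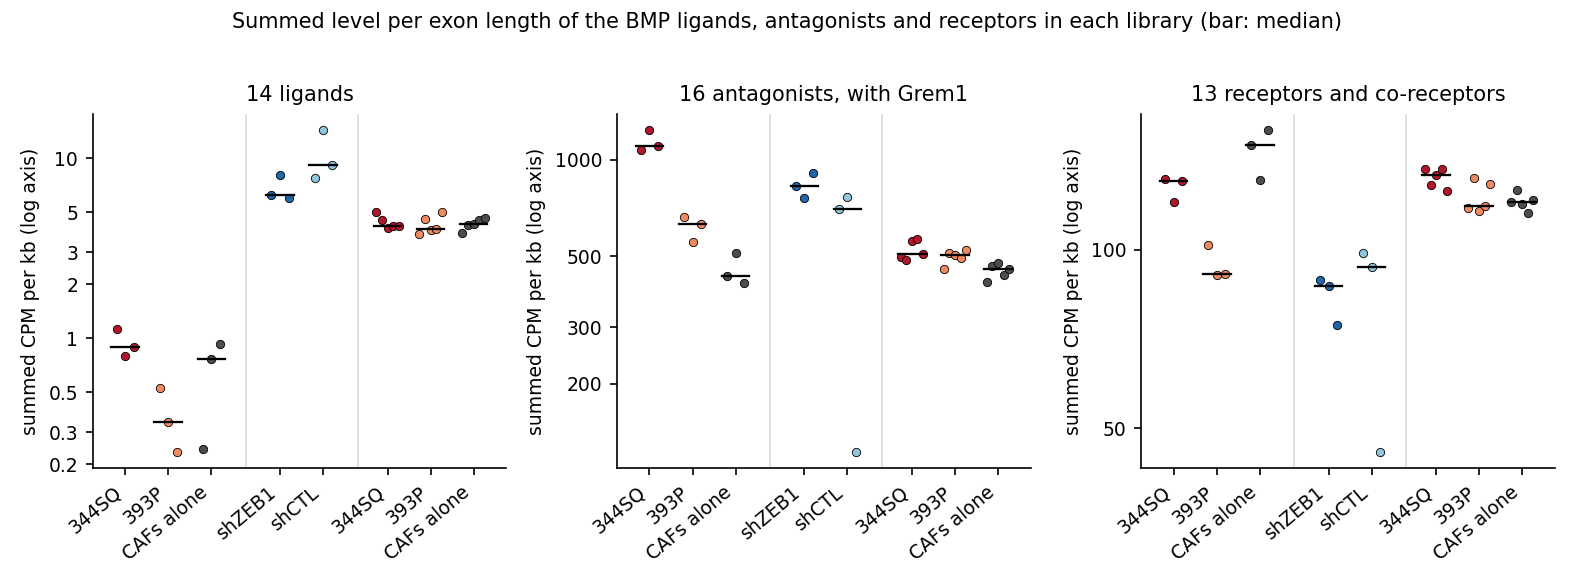
Summed CPM per kb of exon length on a log axis (y axis) of 14 BMP ligands, 16 antagonists and 13 receptors and co-receptors in each library of the 8 groups, with the group median as a bar. Antagonists reach 1068 to 1236 CPM per kb in 344SQ aggregates, while the ligands stay at or under 1.13 CPM per kb in all 9 aggregate libraries without an shRNA and lie highest in the shRNA set.

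The genes whose pattern was most like that of Grem1 were found by Pearson's r of log2 CPM, centred on each gene's mean within its table, over the 9 aggregate libraries and 15 Boyden sums and among 7826 genes. The highest r belonged to Mmd (0.93), Ereg (0.91), Fgf2 (0.91), Acsl4 (0.89) and Nfat5 (0.88), and the lowest to Adam12 (-0.90), Prss23 (-0.89), Fbln2 (-0.89), Acadm (-0.87) and Pcgf6 (-0.87). Ereg, an epidermal growth factor receptor ligand, had a mean of 180 CPM in 344SQ aggregates, 64.5 CPM in 393P aggregates and 35.0 CPM in CAFs alone, and Fgf2, a fibroblast growth factor, had 88.5, 45.1 and 33.6 CPM in the same groups. Fbln2, which encodes a matrix protein, had 560 CPM in 344SQ aggregates, 1038 CPM in 393P aggregates and 1182 CPM in CAFs alone. Among the members r with Grem1 was 0.67 for Id3, 0.33 for Id1, 0.26 for Bmpr2, -0.10 for Bmpr1a and -0.29 for Id2. The 24 points share libraries and scaling, and the 3 libraries of 344SQ aggregates lay highest for Grem1, so r is a description.

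Of the nearest 2 protein-coding genes on each side of Grem1, none was called in aggregates against CAFs alone. Fmn1, which ends 29397 bases to the left, was called in 344SQ against 393P aggregates at 0.75 (adjusted p = 0.0159), while its log2 changes against CAFs alone were 0.27 with 344SQ cells and -0.48 with 393P cells, at adjusted p of 0.514 and 0.123. Arhgap11a, to the right, rose in the Boyden chamber by 0.39 with 344SQ cells (adjusted p = 0.00403) and by 0.51 with 393P cells (adjusted p = 0.000300), and had log2 changes of 0.10 and 0.11 in aggregates (adjusted p = 0.953 and 0.939). Scg5, which lies 17716 bases to the right, and Tmco5b passed the count filter in no table.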

How the data were processed

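Read count tables were used for the aggregates, the shRNA aggregates and the Boyden chamber. Reads were aligned and counted per gene by the authors with STAR and HTSeq on mm10, per the submitters' processing notes, and the deposited values are raw counts. Tool versions, gene annotation release and strand setting: not given in the sources used here. RNA libraries were made by sonication and ligation, per the labels' protocols. Boyden technical libraries were summed per replicate. Each table was filtered (filterByExpr, minimum count 10), TMM-scaled and fitted with edgeR 4.0.16 (quasi-likelihood, 2-sided, Benjamini-Hochberg) in R 4.3.3, and a joint fit tested differences between formats. Intervals are 1.96 SE to each side, which is approximate and somewhat narrow. DESeq2 1.42.0 and limma 3.58.1 served as alternatives. Technical library 2 or 3 alone, and fits without shRNA libraries rich in carcinoma markers, were alternatives chosen after seeing the data. Scripts were tested on simulated data. Exon lengths and overlaps came from GENCODE M21 (GRCm38). The members and gene lists were chosen with earlier results of these data known. Genes outside the members were named by rule: in each role and comparison up to 4 called genes of smallest p, or the 2 of highest level where none was called, the 5 highest and 5 lowest r with Grem1, and the nearest 2 protein-coding genes on each side. No pair of replicates agreed within sampling noise.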

Additional observations from a re-analysis of the deposited data

Results flagged for a closer look

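For the members, the change against CAFs alone differed between the formats in 3 results, by the test of the difference itself. The same test also called 4 other pathway genes with 344SQ cells and 8 with 393P cells. The log2 change of Grem1 with 344SQ cells was 1.34 higher in aggregates than in the Boyden chamber. The log2 change of Id1 with 393P cells differed by -1.43, and that of Id2 with 393P cells by -1.49, both lower in aggregates. The Id1 and Id2 differences were lost in 3 and 8 of 24 fits without 1 library. Both were lost with technical library 2 alone, at -1.09 and -1.52. That of Id2 was also lost with library 1, at -1.04, and with limma voom and a variance for each table, at -1.50. The formats differ in library set, depth and share of ribosomal RNA-like counts, 19.3% to 25.0% in aggregates and 0.941% to 1.69% in the Boyden sums, which cannot be told apart from the culture. Among 24 groups of 5 replicates no replicate of a tested member stood apart from the others by Dixon's test, which chance would flag in about 1 of 20 groups.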

How the results depend on the processing

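Grem1 kept its direction against CAFs alone, and in the differences between formats, in every alternative run. Its 344SQ call held in all of them in aggregates, and in all but technical library 3 alone in the Boyden chamber, where its log2 change was 0.31. Leaving out 1 library gave log2 changes of Grem1 of 0.46 to 0.70 for 393P aggregates against CAFs alone and 0.27 to 0.47 for the 393P difference between formats, and 284 to 511 genes called for 344SQ aggregates, 284 without CAFs-alone replicate 3. Members called then ranged from 1 to 2 (344SQ aggregates against CAFs alone, and against 393P), 2 to 4 (393P Boyden), 0 to 1 (344SQ against 393P Boyden) and 0 to 3 (393P difference between formats). Without the count filter 2 members were called in 344SQ against 393P aggregates, 1 in 344SQ against 393P Boyden, and 90 genes in shZEB1 against shCTL. In that last comparison DESeq2 called 27 genes, and the fit without the 3 libraries over 500 CPM of carcinoma markers 86. With technical library 1, 2 or 3 alone, fits of shallower data of which those of 2 and 3 were chosen after seeing the data, the Boyden counts were 609, 199 or 1133 genes and 2, 0 or 1 members (393P), 500, 513 or 739 genes and 1 member each (344SQ), and 73, 280 or 152 genes (344SQ against 393P). Grem1 with 393P cells was at 0.18 (library 2) and 0.31 (library 3), not called, and in 344SQ against 393P at -0.0029 (library 3). Runx2 with 393P cells was reversed at -0.073 (library 1) and Id1 at -0.043 (library 2). The Boyden calls of Bmp6, Smad9, Atoh8 and Bmper were lost under 3, 3, 4 and 6 of the settings other than leaving out a library. For the differences between formats library 1 called 818 genes and 1 member (393P) and 364 genes (344SQ), library 2 804 and 0, and 414, and limma voom 857 and 1, and 384. The cause of the other moves was not tested. Replicate numbers did not pair the samples (r over 0.1 in 0 of 9, 1 of 3 and 1 of 15 pairs of the aggregate, shRNA and Boyden sets). With the replicate block Grem1 changed by 1.70 and 0.58 in 344SQ and 393P aggregates and by 1.16 in shZEB1 against shCTL, not called, and 1 gene was called in shZEB1 against shCTL. Counts limit Bmp2, Bmp4, Smad6, Id1 and Id2 in the aggregates.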
